A study of Mus musculus with 6 samples.

Results

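The germ cell Tudor domain family was followed as 10 named genes in mouse testes with and without a Prss37 knockout: Tdrd1, Tdrd3, Tdrd5, Tdrd6, Tdrd7, Tdrd9, Tdrd12, Tdrkh (also Tdrd2), Rnf17 (also Tdrd4) and Stk31. Probes were matched to them by accession, symbol or synonym, and all 10 were measured, by 17 of the 41174 probes. All 17 probes were well above background on all 6 arrays, so all 10 genes passed the filter on dim probes and stood among 18976 genes tested. The groups were 3 testes of Prss37 knockout mice and 3 of wild-type mice, all on C57BL/6 and 6 to 8 weeks old, and each RNA was hybridised to its own single-colour array. Prss37 encodes a serine protease-like protein of the testis. The deleted part of the gene and any shared litters are not given in the sources used here, and the description of the knockout samples names Prss55 where the titles name Prss37.

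Tudor domains bind methylated arginines, and in male germ cells they hold PIWI proteins, which carry methylated arginines near one end, in RNA-rich granules without a membrane. In these granules (the cement between mitochondria of spermatocytes and the chromatoid body of round spermatids) PIWI-interacting RNAs, or piRNAs, are made and put to use, among other things to silence transposons. Mice lacking most members of the family are sterile as males. Tdrd3 stands apart, since it is expressed in many tissues and acts in transcription and translation with a topoisomerase.

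No transcript of the family was called different between genotypes, and every difference was small. The fitted differences ran from -0.14 (Tdrd5) to 0.13 (Tdrd7) on the log2 scale, knockout minus wild type. By limma with Benjamini-Hochberg adjustment over all genes, 0 of 10 passed an adjusted p of 0.05, where 467 of 18976 genes (2.46%) did: 0 members rose, against 1.21% of all genes, and 0 fell, against 1.25%. A difference no larger than that of Tdrd5 was found in 65.8% of all genes. At an unadjusted p under 0.05 there was 1 member, Tdrd7, against 23.9% of all genes. For 7 of the 10 the 95% interval, taken singly, lay within a 1.2-fold difference in either direction, as it did for 49.9% of all genes, and Tdrd5, Tdrd6 and Rnf17 were the exceptions; this width was chosen after the values had been seen.

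Prss37 itself had a scaled signal of 67590, 73820 and 71560 in knockout testes, against 116100, 107900 and 124400 in wild-type testes (log2 difference -0.71, SE 0.07, limma adjusted p = 0.024). Here and below, signals are background-subtracted brightness scaled so that the 75th percentile of each array is 1617. They are not used to compare the levels of different genes, and sums over a list weigh its brightest probes most. Because the deleted part is unknown, this probe need not lie in it. The call for Prss37 was lost with no filter on dim probes, with the replicate number as a block, on slide 1 alone and without any one of knockout replicates 1 to 3 or wild-type replicate 1 (adjusted p = 0.071 to 0.13), while the difference stayed between -0.81 and -0.66.

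The probes are 60-base oligonucleotides, and 5 of them are shown because their signals carry the comparisons within genes made below: both probes of Tdrd5, both of Rnf17 and the dimmer of Tdrd1. They are printed 5′ to 3′ in lower case throughout, since the whole oligonucleotide is what hybridises.
Tdrd5 brighter probe: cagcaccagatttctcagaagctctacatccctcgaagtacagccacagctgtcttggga
Tdrd5 dimmer probe: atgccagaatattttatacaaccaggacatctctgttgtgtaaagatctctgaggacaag
Rnf17 brighter probe: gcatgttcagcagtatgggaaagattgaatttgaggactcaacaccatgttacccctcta
Rnf17 dimmer probe: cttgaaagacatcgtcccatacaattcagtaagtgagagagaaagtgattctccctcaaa
Tdrd1 dimmer probe: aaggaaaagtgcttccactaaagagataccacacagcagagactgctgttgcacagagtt

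The Tdrd5 probes lie at chr1:158185800-158185859 and chr1:158207541-158207600 on the minus strand (mm9, as the scanner files give it), at positions 3009 and 1626 of the transcript. The brighter Rnf17 probe spans 3991 bases of genome, chr14:57053463-57057453, so its 60 bases cross a splice junction, and the dimmer one lies at chr14:57082002-57082061. The dimmer Tdrd1 probe spans 482 bases at chr19:56940470-56940951 and also crosses a junction. The 10 genes lie on 9 chromosomes, with Tdrd3 and Rnf17 both on chromosome 14.

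The scaffolds of the chromatoid body came first. Tdrd7, which has LOTUS as well as Tudor domains and is needed to remodel the chromatoid body, had signals of 47060, 50440 and 50250 in knockout testes, against 44450, 46480 and 43740 in wild-type testes. All 3 knockout values lay above all 3 wild-type values, with knockout replicate 1 close to wild-type replicate 2. Its log2 difference was 0.13 (SE 0.05, 95% interval 0.02 to 0.25, n = 3 each, limma adjusted p = 0.17), a 1.10-fold level. The probe lies at chr4:46047484-46047543, and the difference was 0.10 between the arrays of slide 1 and 0.20 between those of slide 2.

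Tdrd6, a large protein of several Tudor domains that gives the chromatoid body of round spermatids its architecture, had 22310, 23010 and 22910 in knockout testes, against 18370, 23140 and 22440 in wild-type testes. The groups overlapped, and wild-type replicate 1 alone was low. The log2 difference was 0.10 (SE 0.09, 95% interval -0.13 to 0.33, adjusted p = 0.56), and it was -0.003 without wild-type replicate 1.

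Tdrd5, the other LOTUS and Tudor protein of these granules, needed for transposon silencing and for spermatids to go on developing, had 4146, 3913 and 4189 in knockout testes, against 4804, 4366 and 4309 in wild-type testes. The knockout values were all the lower, and wild-type replicate 1 was the highest of the 6. The log2 difference was -0.14 (SE 0.06, 95% interval -0.28 to 0.006, adjusted p = 0.22), the largest in size among the members' brightest probes. This difference was -0.19 on slide 1, -0.04 on slide 2 and -0.09 without wild-type replicate 1. The dimmer Tdrd5 probe had 268.5, 278.2 and 295.1 in knockout testes, against 347.7, 283.6 and 293.6 in wild-type testes. Its difference was nearly the same (-0.13, SE 0.09, adjusted p = 0.43 over all probes), but its groups overlapped, and wild-type replicate 1 was again the highest.

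Tdrd1, which binds PIWI proteins through their methylated arginines in the cement between mitochondria, had 26860, 24840 and 25600 in knockout testes, against 29130, 23790 and 26140 in wild-type testes. The knockout values lay inside the wild-type range (log2 difference -0.03, SE 0.08, 95% interval -0.23 to 0.17, adjusted p = 0.87). The dimmer Tdrd1 probe had 1391, 1428 and 1430 in knockout testes, against 1594, 1571 and 1484 in wild-type testes. These groups did not overlap, and the difference was -0.13 (SE 0.05, unadjusted p = 0.029, adjusted p = 0.17 over all probes).

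Rnf17, a RING finger and Tudor protein that forms its own granules and is needed in spermatids, had 657.7, 689.0 and 682.1 in knockout testes, against 692.8, 823.8 and 597.3 in wild-type testes with the brighter probe. The knockout values stood close together inside a wide wild-type range (log2 difference -0.05, SE 0.12, 95% interval -0.33 to 0.24, adjusted p = 0.84). The interval is the widest among the members' brightest probes, and the difference was -0.17 on slide 1 and 0.19 on slide 2. The dimmer Rnf17 probe had 666.4, 656.3 and 687.2 in knockout testes, against 594.7, 644.4 and 582.9 in wild-type testes. Here the knockout values were all the higher (log2 difference 0.14, SE 0.05, unadjusted p = 0.036, adjusted p = 0.19 over all probes). The direction for Rnf17 therefore depended on the probe. The log2 ratio of the brighter to the dimmer probe within an array averaged 0.01 in knockout and 0.20 in wild-type testes, a difference of -0.19 with an exact two-sided permutation p of 0.2 (adjusted p = 1.0 over 8 probe pairs; the smallest p this design allows is 0.1).

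The members that act in piRNA production and transposon silencing with helicase or RNA-binding domains included, by brightest probe, the most tightly measured, Tdrd12 and Tdrkh. Tdrd9, a helicase that works with a nuclear PIWI protein in fetal germ cells and is needed for male meiosis, had 8495, 7983 and 8372 in knockout testes, against 7873, 8163 and 7810 in wild-type testes. The groups overlapped through knockout replicate 2 (log2 difference 0.06, SE 0.04, 95% interval -0.05 to 0.17, adjusted p = 0.47).

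Tdrd12, a helicase-like Tudor protein needed to make the piRNAs of that PIWI protein, had 10550, 10470 and 10340 in knockout testes, against 10310, 10760 and 10400 in wild-type testes. The 6 values nearly coincided. The log2 difference was -0.005 (SE 0.04, adjusted p = 0.95), and the 95% interval of -0.10 to 0.09 allows at most a 1.07-fold lower or a 1.06-fold higher level. The other Tdrd12 probe gave -0.03 (SE 0.07) with overlapping groups.

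Tdrkh, which anchors piRNA trimming to mitochondria through its KH and Tudor domains, had 4861, 4598 and 4697 in knockout testes, against 4724, 4784 and 4735 in wild-type testes. The wild-type values lay within the knockout range. The log2 difference was -0.009 (SE 0.04, 95% interval -0.11 to 0.09, adjusted p = 0.92), so that a lower level of more than 1.08-fold lies outside the interval of this probe. The dimmer Tdrkh probe, with mean signals of 92.04 in knockout and 92.56 in wild-type testes, was far less precise. It gave 0.002 (SE 0.16, 95% interval -0.38 to 0.38), with overlapping groups.

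Stk31, a Tudor protein with a kinase domain that is found in spermatids and sperm, had 4831, 4478 and 4699 in knockout testes, against 4821, 4905 and 4800 in wild-type testes. Knockout replicate 2 was the lowest and the groups overlapped (log2 difference -0.05, SE 0.04, 95% interval -0.16 to 0.05, adjusted p = 0.52). Stk31 is the member on the chromosome of the targeted gene, chr6:49397301-49397360, with its probe 8.93 Mb from that of Prss37.

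Tdrd3, the broadly expressed member, had 5425, 5586 and 5436 in knockout testes, against 5661, 5437 and 5849 in wild-type testes. The groups overlapped (log2 difference -0.04, SE 0.04, 95% interval -0.15 to 0.06, adjusted p = 0.61). Its 2 other probes gave -0.09 (SE 0.05) and -0.01 (SE 0.13), neither called, both with overlapping groups.

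**Figure D1:**
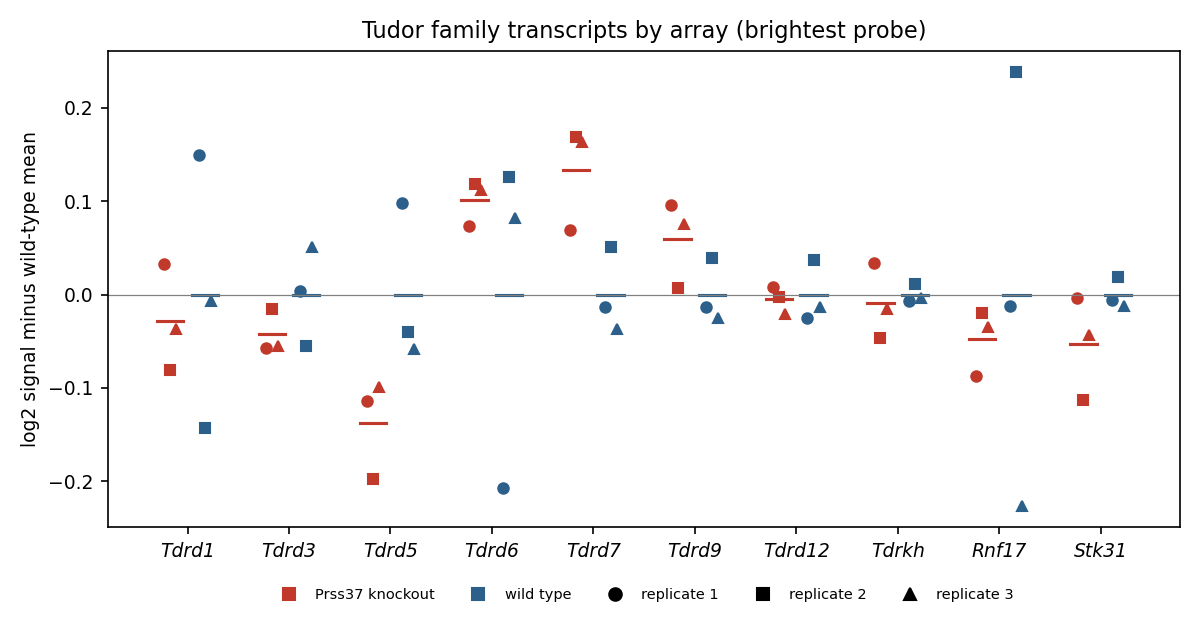
Log2 signal of the brightest probe of each of the 10 members, minus the member's wild-type mean, for 3 knockout arrays (red, left) and 3 wild-type arrays (blue, right); marker shape gives the replicate number and bars are group means. The groups are separate in Tdrd5 (knockout lower) and Tdrd7 (knockout higher), and the wide spreads in Tdrd1, Tdrd6 and Rnf17 are those of wild-type arrays.

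As a set, 3 members had a difference above 0 and 7 below, with a median of -0.02, where the median over all genes was -0.002. Groups did not overlap in 2 of 10 members, against 31.6% of all genes: 1 was higher (15.5% of all genes) and 1 lower (16% of all genes). Among the 17 probes the groups did not overlap in 4, against 30.4% of all tested probes, and 0 of 17 were called, against 1.04%. At an unadjusted p under 0.05 there were 3 probes, against 22.5% of all tested probes. The spread between arrays of one genotype varied within the family. The median residual SD over members was 0.046 on the log2 scale, against 0.079 over all genes. It was 0.03 for Tdrd12 and Tdrkh. For Tdrd1 (0.11), Tdrd6 (0.13) and Rnf17 (0.17) it lay above the median over all genes. No array stood above or below the rest for the whole family. The number of members above their own mean was 7, 5 and 3 on the knockout arrays and 5, 7 and 6 on the wild-type arrays.

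**Figure D2:**
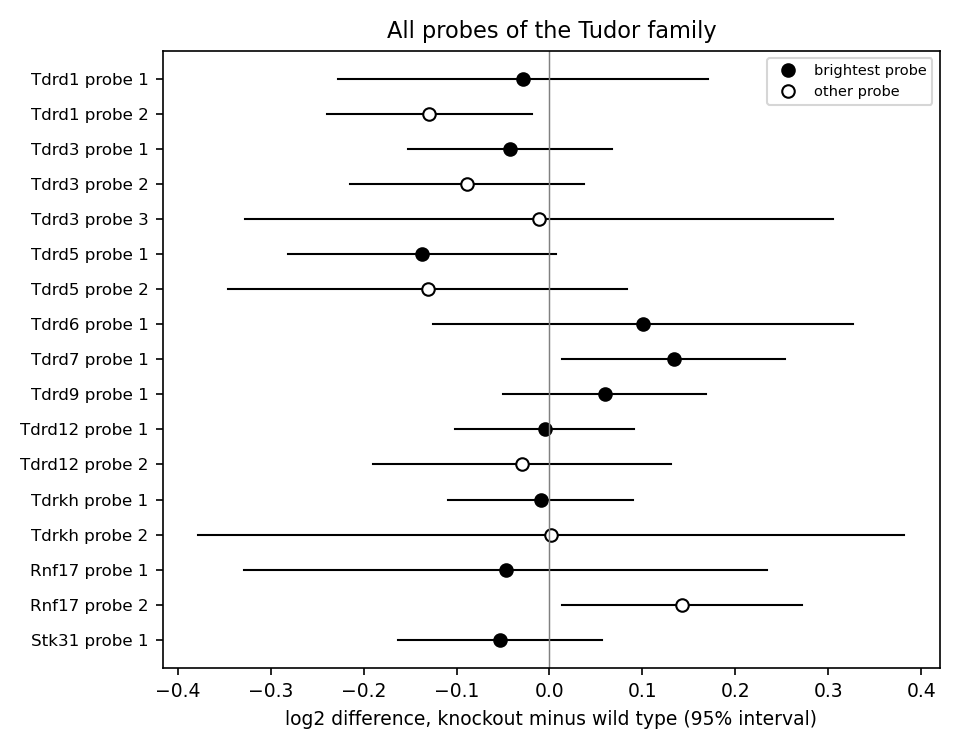
Log2 difference (knockout minus wild type) and 95% interval of all 17 probes, in the fit over all probes; filled points are the brightest probe of a gene. The intervals of the dimmer Tdrd1 probe, the Tdrd7 probe and the dimmer Rnf17 probe do not include 0, and 0 of 17 passed the adjusted threshold.

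Exd1 and Dnmt3l were the called genes among those that work with the family. Of 25 named partners in the piRNA pathway, 21 were tested and 2 were called (9.52%, against 2.46% of all genes): Dnmt3l rose and Exd1 fell, with 15 above 0, 6 below and a median of 0.07, where the median over all genes was -0.002. At an unadjusted p under 0.05 there were 8 (38.1%, against 23.9% of all genes), 5 higher and 3 lower. The groups did not overlap in 42.9% of the partners, against 31.6% of all genes. This list was chosen with earlier results of these data known, so its shares are descriptions and no excess is read from them. Spocd1, Pnldc1 and Btbd18 were not matched to a probe, and Nanos2 was too dim to test. Exd1 encodes a partner of TDRD12 in the mouse. It had 3396, 3218 and 3350 in knockout testes, against 4571, 4491 and 4354 in wild-type testes. The groups were far apart (log2 difference -0.43, SE 0.04, limma adjusted p = 0.028), while Tdrd12 itself had the interval given above. Exd1 kept a difference between -0.46 and -0.38 in all 21 alternatives, and its call was lost in 7 of the 20 that give a test, among them the replicate number as a block (adjusted p = 0.13), no filter on dim probes (0.10), slide 1 alone (0.13) and the omission of any one of knockout replicates 1 to 3 or wild-type replicate 1 (0.0725 to 0.145). The Exd1 probe lies at chr2:119345205-119345264. Within 5 Mb on either side, a width chosen after the values had been seen, 29 of 116 tested genes (25%) were called and 0 members lie there. What part this position has in the Exd1 difference was not tested.

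Dnmt3l, a cofactor of DNA methyltransferases that acts downstream of piRNAs in fetal germ cells, had 3821, 3581 and 3588 in knockout testes, against 2356, 2708 and 2638 in wild-type testes. The groups did not overlap (log2 difference 0.51, SE 0.07, adjusted p = 0.036). Its call was lost in 8 of the 20 alternatives, among them the slide as a block (0.062) and the omission of any one of knockout replicates 1 to 3 or wild-type replicate 1 (0.0969 to 0.152). The PIWI genes of the adult testis were chosen for mention by role after their values had been seen. For Piwil1 it was -0.03 (95% interval -0.22 to 0.15, adjusted p = 0.82), a sign that turned without wild-type replicate 1, and for Piwil2 it was 0.12 (95% interval -0.08 to 0.31, adjusted p = 0.43), both log2 differences with overlapping groups.

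The enzymes that methylate arginines, listed with the partner genes Wdr77 and Clns1a, were not called: 0 of 10 genes tested. Of these, 5 lay above 0 and 5 below, with a median of -0.04. Over all genes 2.46% were called. At an unadjusted p under 0.05 there were 2 (20%, against 23.9% of all genes), both lower. Prmt5, the enzyme that makes symmetric dimethylarginine on PIWI proteins, had 5071, 4843 and 4714 in knockout testes, against 5702, 5267 and 5207 in wild-type testes (log2 difference -0.14, SE 0.05, adjusted p = 0.18). Prmt2, another arginine methyltransferase gene, had -0.14 (SE 0.04, adjusted p = 0.10). Both had all knockout values below all wild-type values, as 16% of all genes did. In either direction, groups did not overlap in 40% of this list, against 31.6% of all genes.

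Other Tudor domain genes, most of them chromatin readers outside the piRNA pathway, were not called either: 0 of 21 tested, with 13 above 0, 8 below and a median of 0.01. At an unadjusted p under 0.05 there were 2 (9.52%, against 23.9% of all genes), 1 higher and 1 lower. Smn1, which assembles spliceosomal ribonucleoproteins and is the counterpart of the spinal muscular atrophy gene, had 0.16 (SE 0.05, adjusted p = 0.13). The Polycomb partner gene Mtf2 had -0.17 (SE 0.06, adjusted p = 0.17) by its brightest probe. The other Mtf2 probes gave -0.10, -0.10 and -0.11, all with overlapping groups.

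**Figure D3:**
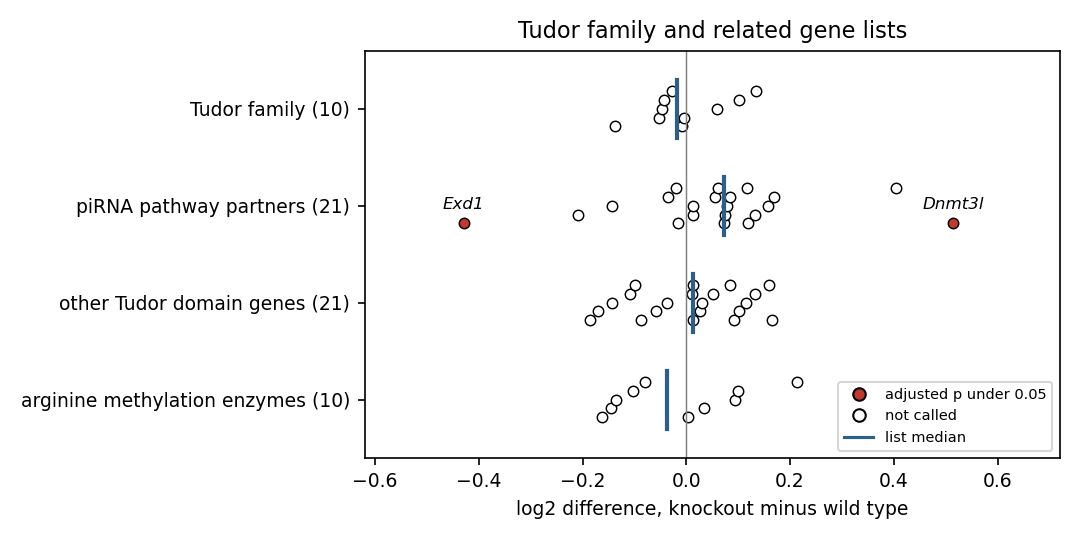
Log2 differences (knockout minus wild type) of the 10 Tudor family genes, 21 piRNA pathway partners, 21 other Tudor domain genes and 10 arginine methylation genes. Each point is a gene, vertical bars are list medians, filled points are called at adjusted p under 0.05. Exd1 at -0.43 and Dnmt3l at 0.51 are called, and the Tudor family lies between -0.14 and 0.13.

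These are bulk measurements, in which fewer cells of a type and less RNA per cell cannot be told apart. Of the markers of the stages that express the family, 0 of 8 spermatogonial, 0 of 10 spermatocyte, 0 of 10 round spermatid and 0 of 10 elongating spermatid genes were called. Of all genes tested, 2.46% were called, so lists of this size would hold few calls in any case. Groups did not overlap in 37.5% of the spermatogonial, 30% of the spermatocyte, 70% of the round spermatid and 10% of the elongating spermatid genes. Over all genes this share was 31.6%. At an unadjusted p under 0.05, which 23.9% of all genes passed, there were 3 spermatogonial (all lower), 3 spermatocyte (1 higher, 2 lower), 4 round spermatid (3 higher, 1 lower) and 1 elongating spermatid gene (higher).

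The spermatogonial markers were evenly split, with 4 above 0, 4 below and a median of -0.00, although their summed signal ran from 24310 to 24740 in knockout testes, against 26920 to 30190 in wild-type testes. Most of the sum comes from Uchl1 and Stra8, which were both lower without being called. Uchl1 had a log2 difference of -0.19 (limma adjusted p = 0.11) and Stra8, a gene of the entry into meiosis, had -0.42 (0.058). Nanos3 had -0.34 (limma adjusted p = 0.14), with groups that did not overlap, and Sall4 had -0.03. Sohlh2 (0.13), Dmrt1 (0.09), Kit (0.03) and Gfra1 (0.02) lay above 0. All these genes were named after their values were seen. The summed spermatocyte signal ran from 186600 to 192700 in knockout testes, against 189900 to 193700 in wild-type testes, with 5 markers above 0 and 5 below. The round spermatid sum ran from 303200 to 305900 in knockout testes, against 278400 to 302600 in wild-type testes, narrowly without overlap, with 8 markers above 0, 2 below and a median of 0.10. The elongating spermatid sums overlapped, with 8 above 0, 2 below and a median of 0.09.

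Among somatic markers 0 of 9 Sertoli, 0 of 7 Leydig, 0 of 5 peritubular, 0 of 9 macrophage and 0 of 2 epididymal genes were called. The share called over all genes was 2.46%. At an unadjusted p under 0.05, which 23.9% of all genes passed, the macrophage markers had 5 of 9 (55.6%), all higher. Of these 9 markers 8 lay above 0 and 1 below, with a median of 0.16, although their sums overlapped. The Sertoli markers had 3 (2 higher, 1 lower), with 7 above 0, 2 below and a median of 0.02. Their sum, in which the brightest probes weigh most, ran from 228200 to 231900 in knockout testes, against 213900 to 220700 in wild-type testes. There was 1 Leydig gene (lower), 1 peritubular gene (lower) and 1 epididymal gene (higher). The epididymal markers Lcn5, Lcn8 and Crisp1 were on the array but were not tested. The sum of the 2 tested ran from 539.1 to 567.8 in knockout testes, against 436.4 to 511.7 in wild-type testes. Most of that sum came from Rnase10 (mean 481.8 in knockout and 407.9 in wild-type testes). Defb20 was dim (mean 73.82 in knockout and 69.29 in wild-type testes), and its groups overlapped. The 2 erythroid genes went opposite ways: Alas2, a heme synthesis gene, rose (log2 difference 0.53, adjusted p = 0.039) and the globin gene Hba-a1 had -0.25 (adjusted p = 0.71), with overlapping sums of 8078 to 9171 in knockout testes and 6415 to 10750 in wild-type testes. The part of these cell type markers in the family's values was not tested.

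The promoters of 8 members were in the RefSeq promoter table (GRCm38.p6, 250 bases before to 50 after each start). The MYB core letters AACGG, searched on both strands, were in a promoter of 4 of the 8, or 50% (Tdrd5, Tdrd7, Tdrd9 and Tdrd12) and of 19.6% of 27025 genes. Genes with several starts have several windows, and members had 1.75 windows a gene, against 1.22 over all genes. Per window the letters were in 5 of 14 of the members' (35.7%) and in 17.4% of all 32851. Mybl1, whose product A-MYB drives piRNA pathway genes in mouse spermatocytes, differed by 0.07 on the log2 scale (SE 0.05, adjusted p = 0.40) and was named by role after its value was seen. A match of letters is a description and not a binding site.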

How the data were processed

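Total RNA of 6 testes was amplified, labelled with Cy3 and hybridised to single-colour Agilent mouse arrays, per the labels' protocols. The deposited files hold each spot's intensity, from which Feature Extraction 10.7.3.1 had subtracted background, per the file headers; the submitters' processing notes name version 10.7. Its 0 or 1 flags were used as deposited. In the deposited log2 table every column has the same sorted values, and how it was made is not given in the sources used here.

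The 75th percentile of the processed signal ran from 1550 to 1707, 69.2% to 71.4% of spots were well above background and 0 were saturated. Control and outlier-flagged spots were left out, log2 signals were reduced by each array's 75th percentile, and spots of a probe were averaged. A probe entered the test if all unflagged arrays of 1 genotype or both had it well above background, with 2 or more values per genotype. The brightest probe stood for a gene. Probes were named by accession (27668), symbol (5589) or synonym (471) in a GRCm38.p6 RefSeq table, and 7446 kept the file's name. Genotypes were compared with limma 3.58.1 (R 4.3.3; lmFit and eBayes) and Benjamini-Hochberg adjustment, checked on simulated data. Arrays were counted as mice, following the design text. Replicates 1 and 2 of both genotypes shared slide 1, and replicate 3 of both was on slide 2. The number of arrays limits the precision. Members, lists and tests were chosen with earlier results of these data known. Named genes were the 10 members, Prss37 and, from each related list, called genes (up to 4) or else the 2 of smallest p. Piwil1, Piwil2, Mybl1 and the cell type markers with values were named outside this rule, after their values were seen. Alternatives were other normalizations, filters, probe rules, variance models, blocks and left-out arrays.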

Additional observations from a re-analysis of the deposited data

How the results depend on the processing

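Over 20 alternatives with a test at an adjusted p of 0.05, and at 0.1 in place of 0.05, 0 of the 10 members were called in either direction with the other settings kept. The lowest adjusted p of any member was 0.0942, for Tdrd7, whose difference ran from 0.07 to 0.20. Tdrd3, Tdrd5, Tdrd7, Tdrd9 and Stk31 kept their sign in all 21 alternatives. The sign changed in Rnf17 with the mean of its probes (0.048) and on slide 2 alone (0.191), in Tdrkh with normexp and an offset of 50 (0.036), and in Piwil1 on slide 2 alone (0.090). Leaving out an array gave -0.16 to 0.072 in Rnf17, positive without wild-type replicate 2, -0.10 to 0.046 in Tdrd1 and -0.003 to 0.164 in Tdrd6, both changed without wild-type replicate 1, -0.017 to 0.013 in Tdrd12, -0.031 to 0.009 in Tdrkh, and -0.089 to 0.043 in Piwil1. The family median ran from -0.029 to 0.005 over left-out arrays.

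Over all genes 230 were called higher and 237 lower. Array weights raised these counts to 838 and 678, and a variance trend with a robust fit to 691 and 579. At adjusted p under 0.1 they were 959 and 907. Averaging all probes of each gene gave 125 and 150, and testing probes singly called 132 probes higher and 161 lower. Blocking on the slide gave 30 and 49, and the arrays of slide 1, which are fewer, gave 6 and 21. Testing dim probes too, over more genes, left 2 and 6. Deviations of same-numbered arrays had correlations of -0.03, -0.03 and 0.16, and those of the other pairs ran from -0.14 to 0.14. With 3 arrays a genotype and litters not given, these values cannot show whether the numbers pair the mice. With the replicate number as a block the counts were 0 and 2, and 0 members were called. Over single omitted arrays the higher genes numbered 0 to 447 and the lower ones 2 to 345. Other than where stated, the cause was not tested. Intervals rest on 3 arrays a genotype, and those of the dimmest probes of Tdrkh and Tdrd3 were the widest of the 17.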
